A study of Mus musculus with 18 samples.

Results

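The comparison described here asked whether DPCP changed the RNA of 2 sorted skin cell populations, labelled EpSCs and Bulge, by unequal amounts. It is a difference of 2 differences: DPCP EpSCs minus Control EpSCs, less DPCP Bulge minus Control Bulge. It rests on 12 of the series' 18 samples, 3 in each of the 4 groups, and was computed for all 13816 gene IDs of the authors' deposited table. DPCP, or diphenylcyclopropenone, sensitizes skin on contact, so that a later application causes allergic inflammation there. By its title, the series is on how SPP1+ macrophages contribute to the growth of hair in contact hypersensitivity.

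The Control EpSCs and Control Bulge samples came from control mouse dorsal skin at day 0, and the DPCP EpSCs and DPCP Bulge samples from DPCP-treated dorsal skin at day 2. The cells were sorted by surface markers that the design text does not name. Every treated sample was of the later day, so DPCP and day cannot be told apart. Strain, genotype, sex and age are not given in the labels, nor is whether replicates were separate animals. If replicates share an animal, the p-values reflect technical spread alone. The labels do not spell out EpSCs, name the cells as keratinocytes in all groups and speak of hair follicle stem cells in the protocol. Values per library could not be tied to samples and were not used, so the population labels were not checked against marker levels, and depth is unknown.

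In the field's terms, the bulge is the part of the hair follicle that houses its resting stem cells, marked by genes such as Cd34, Krt15 and Lgr5. The sebaceous gland opens into the follicle above it, and the epidermis between follicles is renewed by its own basal cells. Injured or inflamed epidermis switches on stress keratins such as Krt6a, Krt16 and Krt17, small cornified-envelope proteins and antimicrobial alarmins. Immediate early genes such as Fos and Egr1 are transcribed within minutes of a stimulus and are also known to respond to the dissociation of tissue.

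For each gene the difference was taken between the authors' log2 fold changes (DPCP minus control) in EpSCs and in Bulge. Its standard error (SE) was rebuilt from the authors' p-values, and a Benjamini-Hochberg adjustment of its p covered every gene ID. A difference was called at an adjusted p under 0.05. The effect within a population was called, up or down, where the adjusted p in the authors' deposited table was under 0.05. That table gives no calls of its own. A positive difference means that the fold change was higher in EpSCs, and the sign alone does not say in which population the gene moved. Each adjusted p of a difference below comes from that test. In bulk samples, fewer cells of a type and less RNA per cell cannot be told apart.

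The effect of DPCP differed between the populations for 1433 genes, 10.4% of those tested. EpSCs had the higher fold change for 754 genes (5.46%) and the lower one for 679 (4.91%). The called differences were large, with a median size of 2.23 on the log2 scale and none smaller than 0.78. Of them, 807 were over 2 and 324 over 4. Over all genes the median difference was −0.0049, and the median rebuilt SE was 0.29 in EpSCs, 0.37 in Bulge and 0.48 for the difference.

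Most called differences joined effects of opposite sign. The 2 log2 fold changes in the authors' deposited table had opposite signs in 1183 of the 1433 genes (82.6%), against 5115 of all 13816 (37.0%). This share is read as a description, because unequal effects of opposite sign are further apart by construction. By the adjusted p of the authors' deposited table, 5516 genes were called in EpSCs (39.9%: 19.9% up and 20.0% down) and 1421 in Bulge (10.3%: 5.12% up and 5.16% down), and 787 in both. Of those 787, 660 were called in the same direction, and only 12 of these had a called difference. The count of 12 is given for the normal score only. That score gives wider SEs than a t score where p-values are small, which can make a call harder for genes strongly changed in both populations. The other 127 were called in opposite directions, and all 127 had a called difference, as 2 opposite calls nearly require. Among these 127, 89 were called up in EpSCs and down in Bulge, and 38 the other way round. The largest class of called differences, 888 genes or 62.0%, was called in EpSCs and not in Bulge. A further 229 were called in Bulge and not in EpSCs, and 177 in neither population. These classes were of unequal size. The difference was called in 18.8% of the 4729 genes called in EpSCs only and in 36.1% of the 634 called in Bulge only. It was called in 2.31% of the 7666 called in neither.

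**Figure D1:**
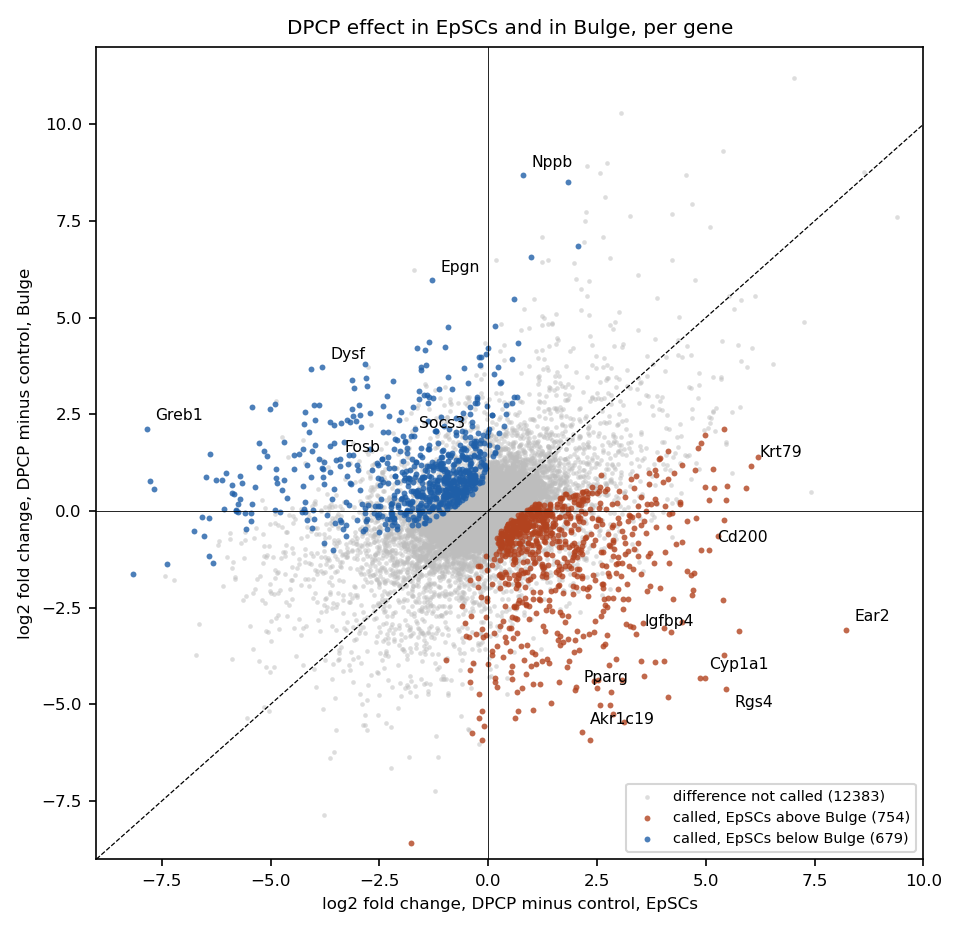
Each point is 1 of the 13816 gene IDs, with the authors' log2 fold change (DPCP minus control) in EpSCs on the x axis and in Bulge on the y axis. Grey points had no called difference, red points (754) had the higher fold change in EpSCs and blue points (679) the lower. The dashed line marks equal effects. Most coloured points lie in the upper left and lower right of the plot, where the effects have opposite signs.

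The difference with the smallest adjusted p was that of Cd200, which encodes a surface glycoprotein that restrains myeloid cells and is used to mark bulge cells. Its log2 fold change in the authors' deposited table was 5.08 in EpSCs and −1.02 in Bulge, both called. The difference was 6.09 ± 0.85 (rebuilt SE, adjusted p = 9.29e-09). Next came Igfbp4, encoding a secreted protein that binds insulin-like growth factors, at 3.41 in EpSCs and −3.18 in Bulge in the authors' deposited table (difference 6.58 ± 0.95, adjusted p = 3.52e-08). Both genes were therefore higher after DPCP in EpSCs and lower after DPCP in Bulge.

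Among the 12 largest positive differences, which ran from 7.70 to 11.29, all 12 genes had a positive log2 fold change in EpSCs and a negative one in Bulge. Ear2, an eosinophil-associated ribonuclease, had the largest, with 8.22 in EpSCs and −3.07 in Bulge in the authors' deposited table, where its Bulge value was not called. Rgs4, a regulator of G protein signalling, stood at 5.47 and −4.59 in the same authors' deposited table, both called (difference 10.06 ± 1.66, adjusted p = 1.19e-06). Cyp1a1, the cytochrome P450 that is the classical target of the aryl hydrocarbon receptor, stood at 4.88 and −4.31 in the authors' deposited table (difference 9.19 ± 2.21, adjusted p = 0.0018). The others were Prss35, Ecscr, C1s1, Avpr1a, Fbln2, Akr1c19, Aadacl3, Mc5r and Hsd17b13. Ranking by the difference favours opposite signs by construction, here and among the largest negative differences.

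Among the 12 largest negative differences, which ran from −7.02 to −9.97, 11 genes had a negative log2 fold change in EpSCs and a positive one in Bulge. Greb1, an estrogen-responsive gene, had the largest, with −7.84 in EpSCs and 2.13 in Bulge in the authors' deposited table, the Bulge value not called. Rgs6, another regulator of G protein signalling, went the opposite way to Rgs4, at −5.42 in EpSCs and 2.69 in Bulge in the authors' deposited table, both called (difference −8.10 ± 1.70, adjusted p = 0.000254). Dysf, encoding the membrane repair protein dysferlin, stood at −3.81 and 3.71 in the authors' deposited table, again both called. The exception was Nppb, the natriuretic peptide B gene, at 0.81 in EpSCs and 8.69 in Bulge in the authors' deposited table, of which only the Bulge value was called. The others were Usp29, Slc4a10, Nfam1, C3ar1, Trim30b, Epgn, Kcnk10 and Pirb. A fold change of this size can come from very low expression in 1 group, and levels were not available to bound it.

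Gene lists were described by their counts and medians beside those of all genes. Of 34 lists, sebaceous gland genes had the highest median difference and stress keratins and alarmins the lowest, followed by immediate early genes. The share of all genes called was 5.46% above 0 and 4.91% below, and each count below is to be read against it. For small lists the number of calls depends on the setting. Larger moves of a count are given beside it, mainly at an adjusted p under 0.01, where calls over all genes fall from 1433 to 536, and for t scores with 4, 12 and the inferred degrees of freedom.

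**Figure D2:**
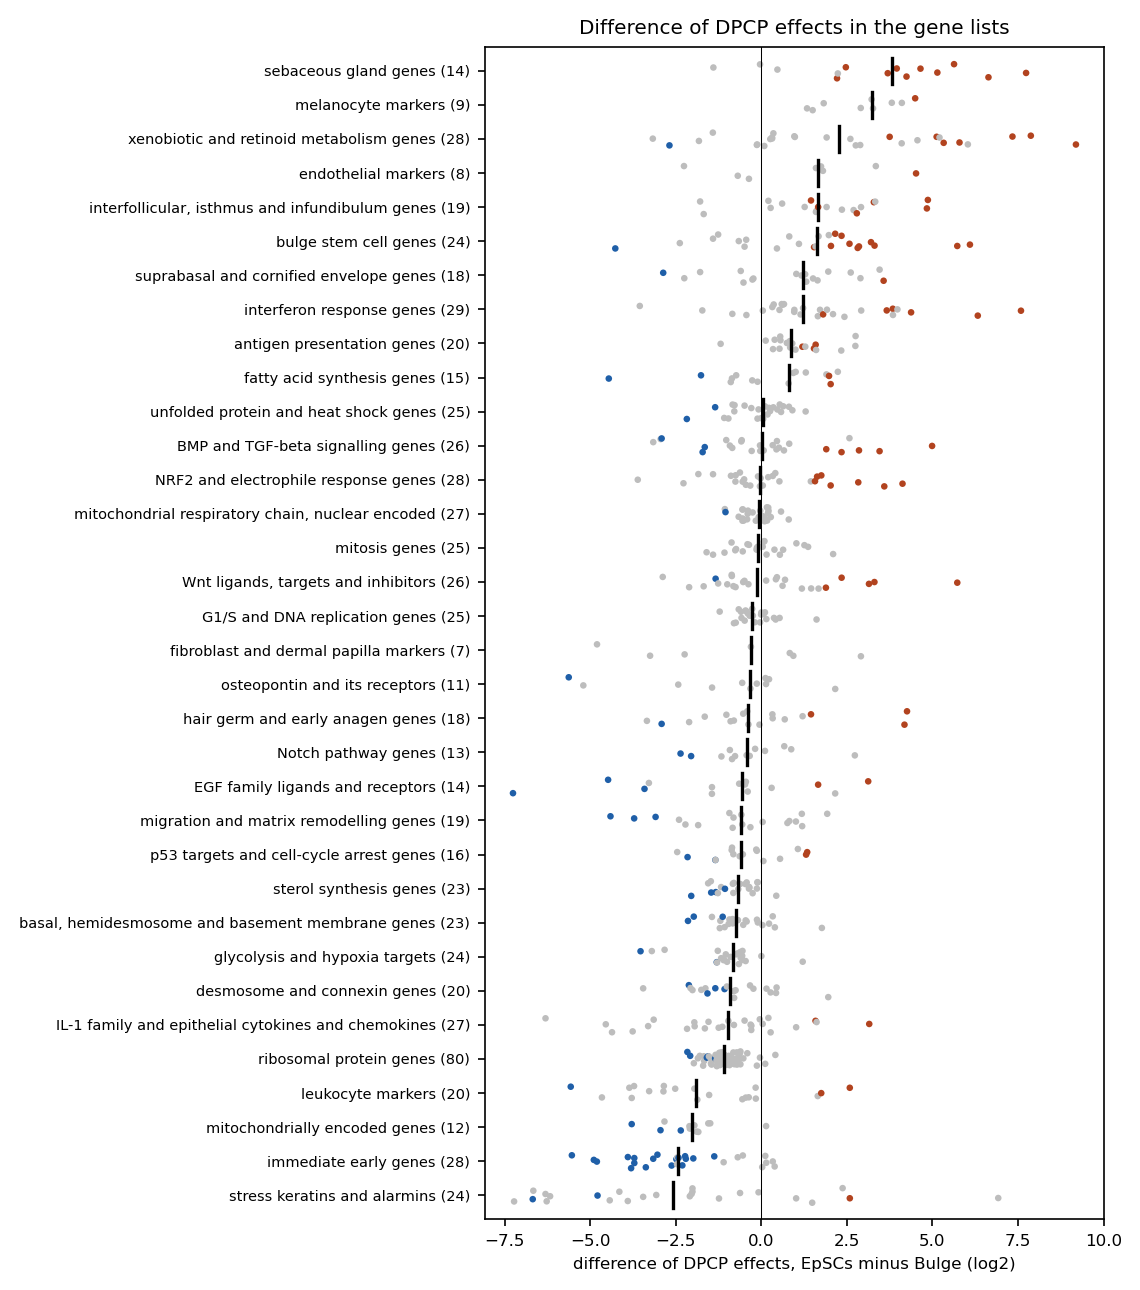
Each row is a gene list with its number of measured members, and each point is 1 member's difference of DPCP effects on the log2 scale, EpSCs minus Bulge. Red and blue points are called differences above and below 0, grey points are not called, and black bars are list medians. Sebaceous gland genes (median 3.82) lie farthest right and stress keratins and alarmins (median −2.58) farthest left.

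Sebaceous gland genes had the higher DPCP effect in EpSCs in 10 of 14 measured members and the lower in 0, against 5.46% and 4.91% of all genes. At an adjusted p under 0.01, 7 were called, and 5 under the Benjamini-Yekutieli adjustment. The median log2 fold change of the list in the authors' deposited table was 1.18 in EpSCs and −2.55 in Bulge. Pparg, the nuclear receptor that drives sebocyte differentiation, rose by 2.0 in EpSCs and fell by 4.63 in Bulge in the authors' deposited table (difference 6.64 ± 1.67, adjusted p = 0.00296). Mgst1, a microsomal glutathione transferase, was at 3.14 in EpSCs and −0.82 in Bulge in the authors' deposited table, with only the EpSCs value called (difference 3.96 ± 0.68, adjusted p = 4.31e-06). Plin2, which coats lipid droplets, and Elovl3, which lengthens fatty acids, were also called in EpSCs only, with differences of 2.21 ± 0.48 and 5.63 ± 1.35. The wax synthases Awat1 and Awat2 showed the reverse class, at −0.21 and −0.41 in EpSCs and −5.35 and −4.10 in Bulge in the authors' deposited table, with only the Bulge values called. Members thus differed in which population's effect was called, and Pparg was called in both. A value that was not called can still add to a difference. Elovl3, for example, was at 3.11 in EpSCs and −2.52 in Bulge in the authors' deposited table. Dgat2, a triglyceride synthase, was at 0.84 and 0.89 in the authors' deposited table and showed no called difference (−0.04 ± 0.42, adjusted p = 0.967).

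Genes that mark bulge stem cells had the higher effect in EpSCs in 11 of 24 measured members and the lower in 1, against 5.46% and 4.91% of all genes. These 12 calls fell to 5 at an adjusted p under 0.01 and to 5 under the Benjamini-Yekutieli adjustment. Their median log2 fold change in the authors' deposited table was 1.24 in EpSCs and −0.27 in Bulge. After Cd200 came Fgf1, a fibroblast growth factor, at 1.77 in EpSCs and −1.43 in Bulge, and Wif1, a secreted Wnt inhibitor, at 1.86 and −3.87, all called in the authors' deposited table. The transcription factor genes Lhx2, Sox9, Tbx1 and Foxc1, of which the first pair are needed to keep bulge stem cells, were called up in EpSCs only. Their differences were 2.81 ± 0.82, 2.16 ± 0.70, 3.31 ± 1.06 and 2.57 ± 0.85. Col6a1, a collagen VI chain, was the member with the lower effect in EpSCs, at −4.22 there and 0.05 in Bulge in the authors' deposited table.

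The most used bulge markers did not show a called difference. Krt15, the keratin of bulge cells, was at −1.71 in EpSCs and −0.30 in Bulge in the authors' deposited table (difference −1.41 ± 0.59, adjusted p = 0.101). Cd34 differed by 1.58 ± 0.87 (adjusted p = 0.230) and Lgr5, a receptor of R-spondins, by 1.67 ± 1.01 (adjusted p = 0.282). The intervals around these values are wide, and a missed threshold does not show equal effects. Ly6a, a surface marker of epidermal cells, differed by 0.61 ± 0.84 (adjusted p = 0.686).

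Of the 19 genes of the interfollicular epidermis, isthmus and infundibulum, 6 had the higher effect in EpSCs and 0 the lower, and 17 of the 19 differences were above 0. Those 6 calls became 3 at an adjusted p under 0.01, 9 with 12, 11 with the inferred and 14 with 4 degrees of freedom. Krt79, a keratin of the infundibulum, rose by 6.04 in EpSCs and stood at 1.17, not called, in Bulge in the authors' deposited table (difference 4.86 ± 1.07, adjusted p = 0.000519). Gata6, a transcription factor of the upper follicle and sebaceous duct, was at 3.84 and 1.05 in the authors' deposited table (difference 2.79 ± 0.82). Lrig1, which marks stem cells of the isthmus and restrains EGF receptors, was at 2.15 and 0.50 in the authors' deposited table (difference 1.66 ± 0.56). Hair germ and early anagen genes were mixed, with 3 of 18 differences called above 0, among them Gli1, a Hedgehog target (4.26 ± 1.28), and 1 below, that of Bmp2 (−2.92 ± 0.82). At an adjusted p under 0.01, 2 of these 4 were called.

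**Figure D3:**
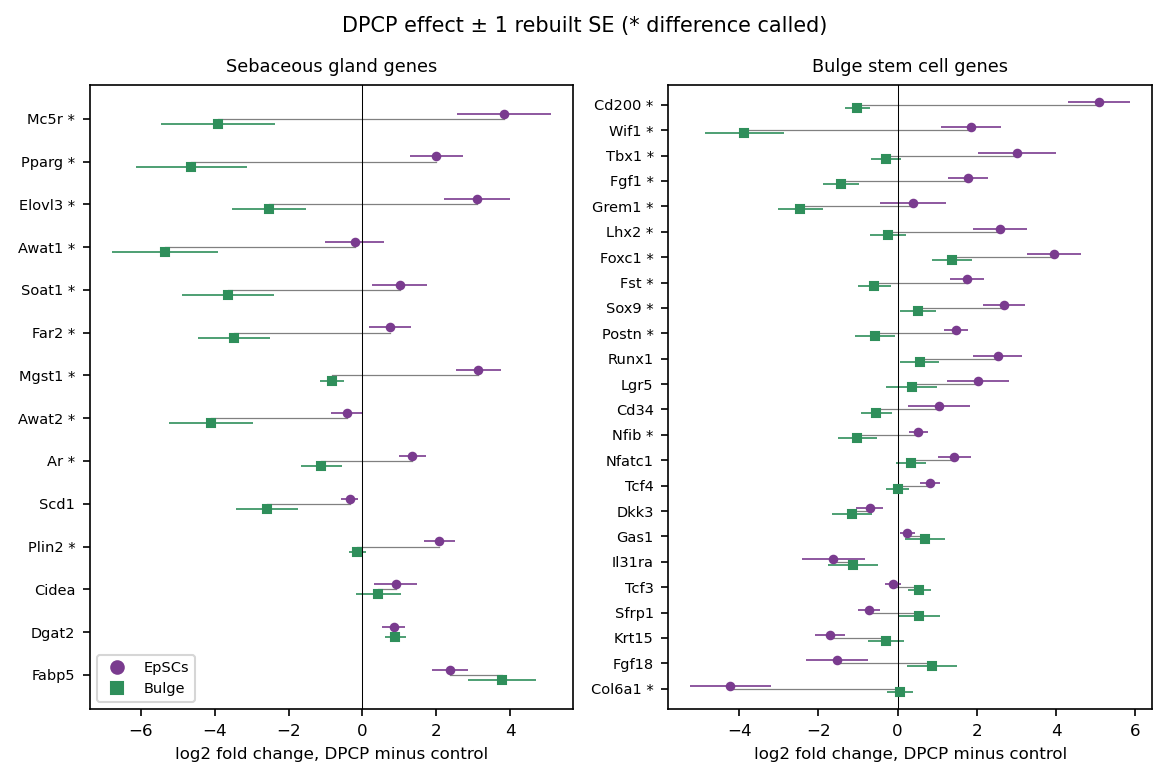
Log2 fold changes (DPCP minus control) in EpSCs (purple circles) and Bulge (green squares) for sebaceous gland genes on the left and bulge stem cell genes on the right, with bars of 1 rebuilt SE. An asterisk marks a called difference and genes are ordered by it. Most purple circles lie right of 0 and of their green squares, with Krt15 and Col6a1 among the exceptions.

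Immediate early genes showed the opposite direction. Of 28 measured members, 18 had the lower effect in EpSCs and 0 the higher, against 4.91% and 5.46% of all genes. The 18 became 15 at an adjusted p under 0.01, 13 under the Benjamini-Yekutieli adjustment and 4 for a difference tested beyond 1. In the authors' deposited table their median log2 fold change was −1.58 in EpSCs and 0.83 in Bulge. Fos and Fosb, which encode AP-1 subunits, were at −2.56 and −3.49 in EpSCs, both called, and at 1.24 and 1.32 in Bulge, neither called, in the authors' deposited table. Their differences were −3.81 ± 0.81 (adjusted p = 0.000315) and −4.81 ± 0.97 (adjusted p = 0.000158). Socs3, a feedback inhibitor of cytokine receptors, was the member called in both populations in opposite directions, at −1.78 in EpSCs and 1.93 in Bulge in the authors' deposited table (difference −3.72 ± 0.71, adjusted p = 5.92e-05). Myc, Junb, Klf2, Egr1, Nr4a1, Zfp36 and Atf3 also had called differences, of −2.62 to −5.54. Other members did not show this. Ccn1, a matrix protein induced by mechanical strain, was at −3.74 in EpSCs and −3.86 in Bulge in the authors' deposited table, both called (difference 0.11 ± 1.31). The part of cell dissociation in these values was not tested.

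The EGF family, which drives keratinocyte growth and migration, held differences in both directions. Of 14 measured members, 3 ligand genes had the lower effect in EpSCs. Epgn, encoding epigen, fell by 1.29 in EpSCs and rose by 5.97 in Bulge in the authors' deposited table (difference −7.26 ± 1.72, adjusted p = 0.00152). Hbegf, encoding heparin-binding EGF, fell by 1.58 in EpSCs and rose by 2.90 in Bulge in the authors' deposited table (difference −4.48 ± 0.96, adjusted p = 0.000377). Areg, encoding amphiregulin, was at 0.13 in EpSCs and 3.55 in Bulge in the authors' deposited table (difference −3.42 ± 1.20, adjusted p = 0.0452). Nrg4 and Lrig1 had the higher effect in EpSCs. At an adjusted p under 0.01, 2 of the 5 calls were left. The receptor genes Egfr, Erbb2 and Erbb3 had no called difference.

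**Figure D4:**
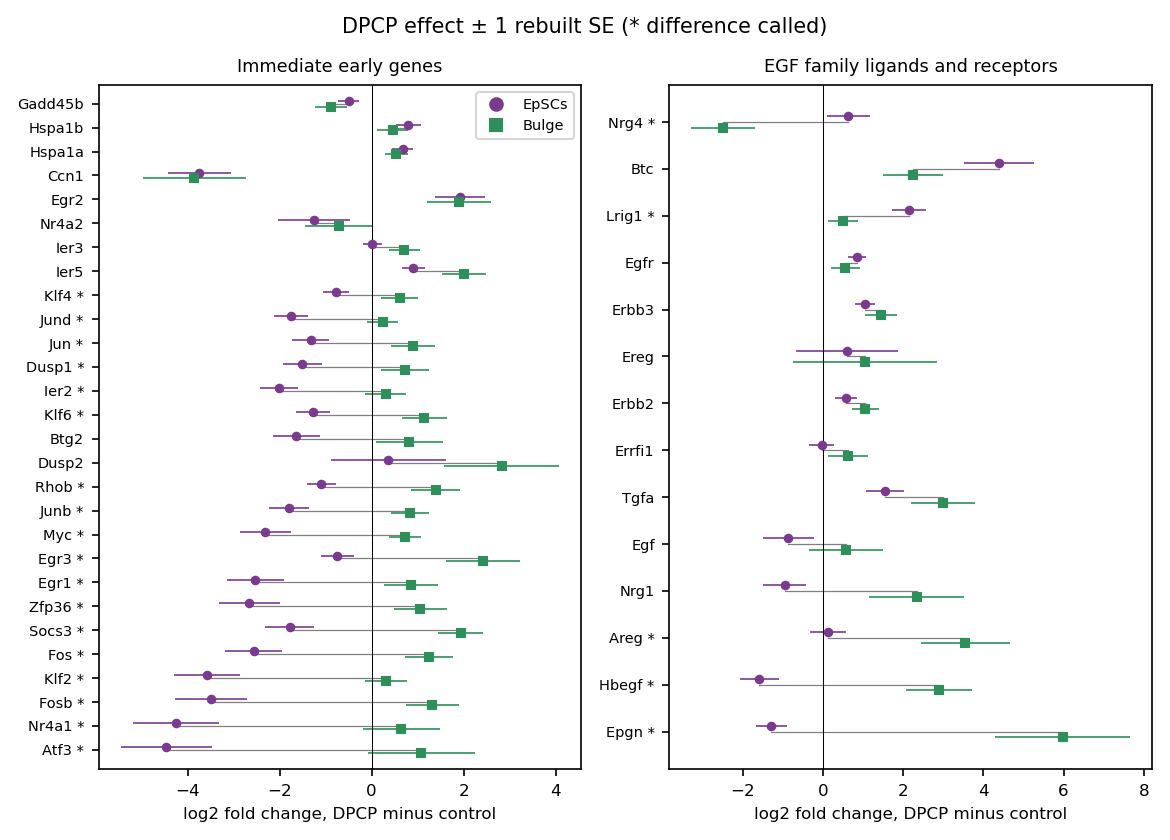
Log2 fold changes (DPCP minus control) in EpSCs (purple circles) and Bulge (green squares) for immediate early genes on the left and EGF family ligands and receptors on the right, with bars of 1 rebuilt SE and an asterisk for a called difference. From Klf4 down to Atf3, the EpSCs values lie left of the Bulge values. Epgn, Hbegf and Areg lie at the foot of the right panel, with the Bulge values right of 2.

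Stress keratins and alarmins were raised by DPCP in both populations, and few members could be told apart. Of 24 measured members, 19 were called up and 2 down in EpSCs, and 15 were called up and 1 down in Bulge. The median log2 fold changes in the authors' deposited table were 2.41 in EpSCs and 5.10 in Bulge. The difference was below 0 in 19 of 24, with a median of −2.58, but only 2 were called below 0 and 1 above. That count of 3 depends on the distribution assumed for the deposited p: it was 6 for a t score with 12 degrees of freedom, 8 with the inferred degrees and 13 with 4, and 0 at an adjusted p under 0.01. Krt16 rose by 2.06 in EpSCs and 6.85 in Bulge in the authors' deposited table (difference −4.79 ± 1.48, adjusted p = 0.0214). Sprr1b, a cornified-envelope precursor, rose by 1.83 and 8.51 in the authors' deposited table (difference −6.68 ± 2.37, adjusted p = 0.0476). Krt17, the partner of Krt6 proteins in injured epidermis, had the higher effect in EpSCs, at 4.13 there and 1.55, not called, in Bulge in the authors' deposited table (difference 2.58 ± 0.87, adjusted p = 0.0371). Krt6a rose by 4.66 and 3.17 in the authors' deposited table (difference 1.48 ± 1.10, adjusted p = 0.401). S100a8 and S100a9, whose products pair as calprotectin, had differences of −6.67 ± 2.94 and −6.18 ± 2.87 that were not called, with rebuilt SEs of 2.86 and 2.76 in Bulge.

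Among interferon-responsive genes the called differences lay above 0. Of 29 measured members, 6 differences were called above 0 and 0 below, and 25 of 29 were above 0. The 6 calls became 4 at an adjusted p under 0.01 and 7 to 9 under the t scores. The median log2 fold change in the authors' deposited table was 1.63 in EpSCs and −0.05 in Bulge. By the adjusted p of that table, 16 of the 29 were up and 2 down in EpSCs, and 0 were up and 4 down in Bulge. Over all genes, 19.9% were up and 20.0% down in EpSCs, and 5.12% up and 5.16% down in Bulge. Ifit1, an RNA-binding antiviral protein gene, was at 3.32 in EpSCs and −3.0 in Bulge in the authors' deposited table, both called (difference 6.32 ± 1.59, adjusted p = 0.00308). Gbp7, a guanylate-binding GTPase gene, was at 1.69 and −2.68 in the authors' deposited table, both called (difference 4.37 ± 0.94, adjusted p = 0.000396). Cxcl9, a chemokine gene induced by interferon gamma, was at 3.58 and −0.26 in the authors' deposited table, with the EpSCs value called (difference 3.84 ± 1.14, adjusted p = 0.0154). Rsad2, Usp18, Ifi44 and Socs1 were the 4 members with a difference below 0, none of them called. Genes of antigen presentation had 3 of 20 differences called above 0 and 0 below, with 2 calls at an adjusted p under 0.01 and 4 or 5 under the t scores. These were B2m, the light chain of class I molecules (1.54 ± 0.40), H2-T23 (1.58 ± 0.38) and H2-DMb1 (1.20 ± 0.38).

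**Figure D5:**
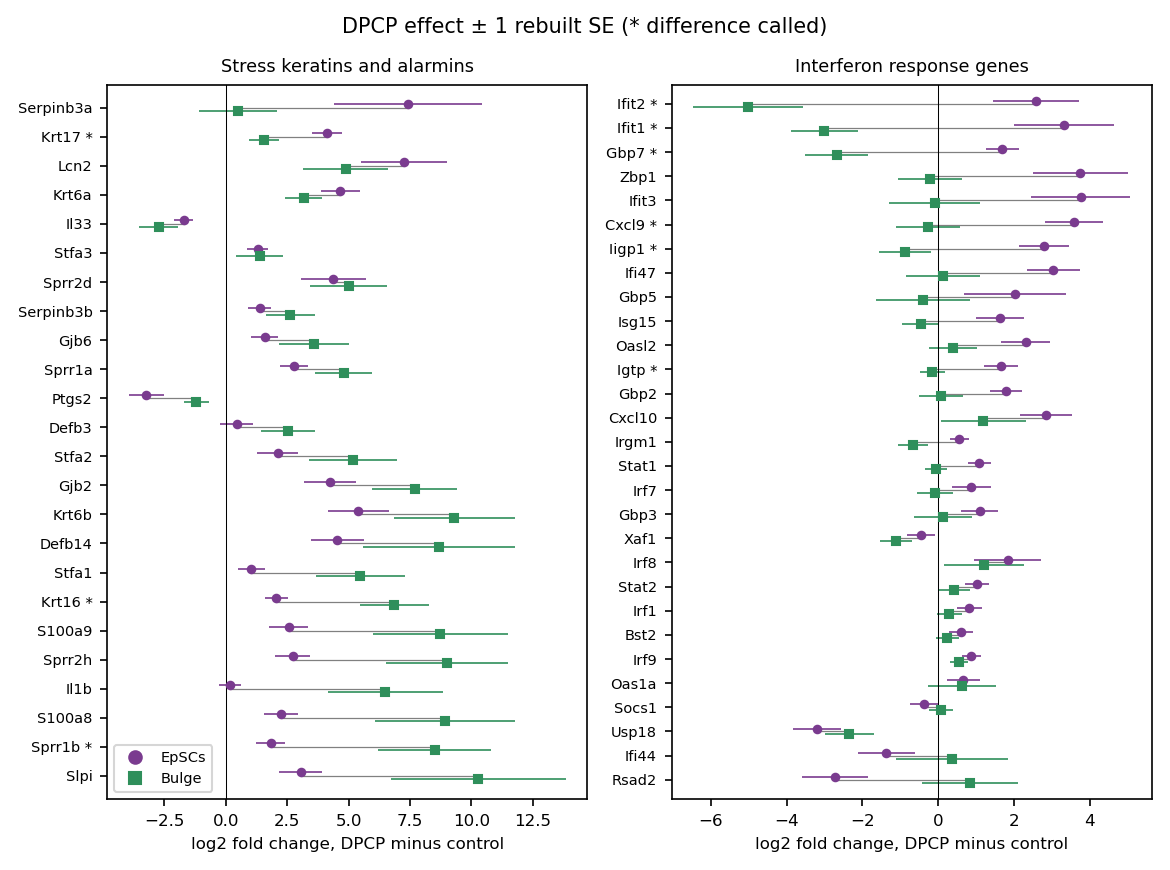
Log2 fold changes (DPCP minus control) in EpSCs (purple circles) and Bulge (green squares) for stress keratins and alarmins on the left and interferon response genes on the right, with bars of 1 rebuilt SE and an asterisk for a called difference. On the left most Bulge values lie far right with wide bars, and 3 differences were called. On the right the EpSCs values lie mostly right of 0 and the Bulge values near or left of 0.

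The promoters of Ifit1 and Gbp7, genes whose effects went in opposite directions in the 2 populations, are shown because members of this list share a sequence feature. The windows, from 250 bases before to 50 after the RefSeq start (GRCm38.p6), were searched on both strands for the interferon-stimulated response element, read as GAAA, any 2 bases and GAAA again. A match was found in 15 of 25 listed interferon genes with a promoter in the table (60.0%) and in 404 of 10782 tested genes (3.75%). The share was 5.53% among genes with a higher and 2.80% among those with a lower effect in EpSCs. Capitals mark the match, which here lies on the opposite strand, at chr19:34640639-34640938 (plus strand) for Ifit1 and chr3:142530086-142530385 (plus strand) for Gbp7. The matches begin 104 and 85 bases before the start of Ifit1 and 53 bases before that of Gbp7.
Ifit1: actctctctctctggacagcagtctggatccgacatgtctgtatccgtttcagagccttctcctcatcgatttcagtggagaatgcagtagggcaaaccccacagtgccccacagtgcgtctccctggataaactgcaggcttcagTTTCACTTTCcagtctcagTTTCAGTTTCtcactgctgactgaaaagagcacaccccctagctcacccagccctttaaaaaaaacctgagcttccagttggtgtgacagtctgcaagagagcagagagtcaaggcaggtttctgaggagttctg
Gbp7: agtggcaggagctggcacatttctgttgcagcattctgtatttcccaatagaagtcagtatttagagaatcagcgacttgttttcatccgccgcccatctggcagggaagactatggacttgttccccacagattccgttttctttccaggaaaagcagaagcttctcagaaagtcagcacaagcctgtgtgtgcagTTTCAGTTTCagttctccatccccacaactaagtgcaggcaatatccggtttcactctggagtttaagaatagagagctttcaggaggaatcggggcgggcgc

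Genes of the response to electrophiles, regulated by the transcription factor NRF2, held 7 called differences of 28, all above 0, although the list's median difference was −0.03. Nqo1, a quinone reductase, rose by 1.97 in EpSCs and fell by 1.62 in Bulge in the authors' deposited table (difference 3.59 ± 0.58, adjusted p = 9.29e-07). Gclc and Gclm, the subunits of the enzyme that starts glutathione synthesis, rose in EpSCs only, by 1.25 and 1.75 in the authors' deposited table, with differences of 1.57 ± 0.39 and 1.63 ± 0.42. Aldh3a1, an aldehyde dehydrogenase, differed through its fall in Bulge, being at 0.35 in EpSCs and −3.77 in Bulge in the authors' deposited table, with the Bulge value called. Hmox1, heme oxygenase, rose in both, by 1.69 and 2.01 in the authors' deposited table (difference −0.33 ± 0.83, adjusted p = 0.843). Genes of xenobiotic and retinoid metabolism had 7 of 28 differences called above 0 and 1 below, with a median of 2.25. These 8 calls became 5 at an adjusted p under 0.01 and 12 to 16 under the t scores. Besides Cyp1a1 they included Cyp1b1, a related P450, at 5.93 in EpSCs and 0.60 in Bulge in the authors' deposited table, and Aadac, an esterase, with a difference of 5.12 ± 0.79 (adjusted p = 2.99e-07).

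Sterol synthesis genes leaned the other way. Of 23 members, 22 had a difference below 0 and 4 were called, all below 0. The list's median log2 fold change in the authors' deposited table was 0.76 in EpSCs and 1.48 in Bulge. These 4 calls became 8 for a t score with 4 degrees of freedom and 0 at an adjusted p under 0.01. Srebf2, the transcription factor that drives the pathway, was at −0.15 and 0.92 in the authors' deposited table (difference −1.07 ± 0.37, adjusted p = 0.0416). Glycolysis and hypoxia genes likewise had 23 of 24 differences below 0, of which 2 were called, and 1 at an adjusted p under 0.01. The 2 were those of Slc16a3, a lactate exporter (−3.53 ± 0.82), and Pfkl (−1.31 ± 0.42).

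A few adhesion genes had a lower effect in EpSCs, against 4.91% of all genes. Of 23 basal, hemidesmosome and basement membrane genes, 3 differences were called, all below 0. They were those of Itga6 and Itgb4, the integrin chains of the hemidesmosome (−1.13 ± 0.39 and −2.15 ± 0.56), and Plec, which ties it to keratin (−1.98 ± 0.48). Each was called down in EpSCs and not called in Bulge in the authors' deposited table. Of 20 desmosome and connexin genes 4 were called below 0, among them Pkp1, which rose by 2.52 in Bulge in the authors' deposited table, and Gja1 (−1.58 ± 0.50). None of these 4 was called at an adjusted p under 0.01, and the t scores called 5 to 7. Of 19 migration and matrix genes 3 were called below 0, led by Fn1, encoding fibronectin, which fell by 2.06 in EpSCs and rose by 2.35 in Bulge in the authors' deposited table (difference −4.41 ± 0.93, adjusted p = 0.000273). The receptor genes Notch1 and Notch3 were the 2 called members of 13 in the Notch pathway, with differences of −2.06 ± 0.58 and −2.36 ± 0.77. That count became 0 at an adjusted p under 0.01 and 4 or 5 under the t scores.

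Wnt and BMP signalling genes had called differences in both directions. Of 26 Wnt genes 5 were above 0 and 1 below, and 2 of the 6 were called at an adjusted p under 0.01. Wnt11 and Fzd7, a ligand and a receptor, were called up in EpSCs only, with differences of 3.14 ± 0.83 and 3.30 ± 0.95, and Wnt4 was called down in EpSCs only (−1.34 ± 0.38). Of 26 BMP and TGF-beta genes 5 were above 0 and 3 below, with 5 called at an adjusted p under 0.01. The TGF-beta ligand genes had differences of opposite sign. Tgfb3 fell by 4.0 in Bulge and was at 0.99, not called, in EpSCs in the authors' deposited table (difference 4.99 ± 1.01, adjusted p = 0.000168). Tgfb1 fell by 1.61 in EpSCs and was at 0.11 in Bulge in the authors' deposited table (difference −1.72 ± 0.56, adjusted p = 0.0316).

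Proliferation genes showed no called difference by this test: 0 of 25 mitosis genes and 0 of 25 genes of G1/S and DNA replication, where 4 of each had an unadjusted p under 0.05. Under each of the other settings tried, at most 1 member of each list was called. Their median differences were −0.10 and −0.27. A missed threshold does not show equal effects. By the adjusted p of the authors' deposited table, 3 mitosis genes were up and 4 down in EpSCs, and 1 up and 0 down in Bulge. Of the G1/S and replication genes, 2 were up and 10 down in EpSCs, and 0 were called in Bulge. Over all genes, 20.0% were called down in EpSCs. Mki67, a marker of cycling cells, differed by 0.15 ± 0.51 (adjusted p = 0.887). Osteopontin, the product of Spp1, gave no called difference either. Spp1 was at 1.23 in EpSCs and 6.44 in Bulge in the authors' deposited table, neither called, with a rebuilt SE of 3.48 for the difference (adjusted p = 0.341). Of its receptors, Itga8 had a called difference (−5.63 ± 1.49) and Cd44 did not (−0.56 ± 0.63).

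Markers of other cells had few called differences, in shares not far from the 10.4% of all genes: 3 of 20 leukocyte (15.0%), 1 of 9 melanocyte (11.1%), 1 of 8 endothelial (12.5%) and 0 of 7 fibroblast markers. The unadjusted p of the difference was under 0.05 in 11 leukocyte, 7 melanocyte, 2 endothelial and 3 fibroblast markers. For all genes it was under 0.05 in 3624 of 13816. The medians of these marker lists are given as values. Of 20 leukocyte markers, 17 had a difference below 0, with a median log2 fold change of −0.92 in EpSCs and 1.25 in Bulge in the authors' deposited table. At an adjusted p under 0.01, 1 of the 3 was called. The 3 were Mmp8, a neutrophil collagenase, below 0 (−5.57 ± 1.62), and Cd68 and Epcam above 0, of which Epcam is also an epithelial gene. Ptprc, the pan-leukocyte CD45 gene, fell by 3.64 in EpSCs and was at 0.08 in Bulge in the authors' deposited table (difference −3.72 ± 1.83, adjusted p = 0.173). The receptor genes Nfam1, C3ar1 and Pirb among the largest negative differences are known from myeloid cells. The eosinophil-associated Ear2 went the other way, with the largest positive difference (11.29). A list of myeloid genes made after the differences had been seen had 10 of 21 called (47.6%), all below 0, and left out Ear2. All 9 melanocyte markers had a difference above 0, with a median of 3.22, and 1 was called, that of the pigment enzyme gene Dct (4.49 ± 1.54). Of 8 endothelial markers Tek was called above 0 (4.52 ± 1.52), and among the fibroblast markers there were 3 at an unadjusted p under 0.05 and 2 called for a t score with 4 degrees of freedom. The part of such cells in the differences above was not tested.

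Ribosomal protein genes had differences below 0 in 78 of 80, with a median of −1.10. The difference was called below 0 in 5 (6.25%, against 4.91% of all genes), and 39 of the 80 had an unadjusted p under 0.05, against 3624 of all 13816. Those 5 became 0 at an adjusted p under 0.01, 1 with 4 and 10 with 12 or the inferred degrees of freedom. Within the populations, 75 of the 80 were called down in EpSCs and 0 in Bulge, against 20.0% and 5.16% of all genes. Their median log2 fold change in the authors' deposited table was −1.28 in EpSCs and −0.24 in Bulge. Of 12 mitochondrially encoded genes 3 were called below 0, among them mt-Nd3 (−3.79 ± 1.23), but 0 at an adjusted p under 0.01 and 6 with 12 or the inferred degrees of freedom. The median log2 fold change was −2.55 in EpSCs and −0.60 in Bulge in the authors' deposited table. Nuclear-encoded respiratory chain genes had a median difference of −0.08 and 1 called member of 27, Cox5a (−1.05 ± 0.37). What part RNA quality or cell makeup has in these values was not tested.

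The 12 genes with called differences that were called in the same direction in both populations, but with unequal size, included 9 that had the more positive effect in EpSCs. Krt16, Sprr1b and Klk10, a skin kallikrein, rose more in Bulge. Eya2, a transcriptional coactivator, rose by 6.21 in EpSCs and 1.38 in Bulge in the authors' deposited table (difference 4.82 ± 1.49). Dse, a dermatan sulfate epimerase, rose by 5.17 and 1.09 in the authors' deposited table (difference 4.08 ± 1.04). Nrep and Prxl2a fell in both and fell more in Bulge.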

How the data were processed

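RNA of cells sorted from mouse dorsal skin was sequenced as paired ends after stranded poly(A) selection, per the labels' protocols. The submitters' processing notes name STAR 2.7.6a, limma 3.60.6, FastQC 0.11.9 and cutadapt 3.5 as tools, and GRCm38 and mm10 as builds. For the read counter, filter, normalization and limma design the entry is: not given in the sources used here.

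Of the deposited table's columns, 36 held values per library under names that matched no sample label, and these were not used. The 9 columns used were the authors' comparisons of DPCP with control. The authors deposited a log2 fold change for each gene and population. With each came a p-value and a Benjamini-Hochberg adjusted p-value, as deposited by the authors. Levels, depth and spread per sample were therefore not analysed, and the planned limma fit on log2 TPM, with its alternatives, and the comparison of the control groups were replaced or left out.

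Each p-value and sign was turned into a normal score, and the SE was rebuilt as log2 fold change over score. If the deposited p-values came from a t distribution, this score is too small and the SE too wide, most of all for the smallest p-values. The ± values and the bars in the figures share this limit. The difference of effects was divided by the root of the summed squared SEs, and its 2-sided normal p was adjusted over 13816 gene IDs. This treats the comparisons as independent, as they share no libraries, although same-numbered samples may share an animal. The computation was tested on simulated data (limma 3.58.1, R 4.3.3), where its false share was slightly above the threshold. The simulation planted far fewer differences than were called here and took the rebuilt SEs as the true ones. Its false share need not hold for the calls reported. Alternatives changed the reference distribution, the adjustment, the threshold, the centring, the size tested and the gene types. The added alternative, a t score with degrees of freedom inferred from the data (11 in EpSCs and 8 in Bulge), was chosen after seeing the data. Python 3.11.15, numpy 2.4.6, scipy 1.17.1 and pandas 2.3.3 were used.

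The comparison and the 34 gene lists were chosen with earlier results of these data known, and 11 further lists after the differences had been seen. Genes were named as the 12 largest called differences in each direction, skipping predicted symbols, up to 4 called members of each list by adjusted p, and always Cd34, Itga6, Ly6a, Krt15, Lgr5, Cd200, Krt6a, Krt17, Spp1, Cd44, Mki67 and Ptprc. Other genes in the text were chosen after their values were seen. Promoter windows and positions came from RefSeq (GRCm38.p6) and gene coordinates from GENCODE (GRCm38), which held 13799 of the 13816 IDs.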

Additional observations from a re-analysis of the deposited data

Results flagged for a closer look

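The DPCP effects of EpSCs and Bulge differed, by the test of the difference itself, for 1433 genes at an adjusted p under 0.05. For 127 genes the effect was called in opposite directions in the 2 populations, by an adjusted p under 0.05 in the authors' deposited table. The third sorted population, Germ, was not part of this comparison. In the authors' deposited table the log2 fold change of these 127 genes in Germ had the sign of the Bulge value in 85 and of the EpSCs value in 42. Nearly all of these Germ values had an adjusted p above 0.05 in that table, and some were close to 0, such as Fam107b at −0.045. Their signs are therefore uncertain. Of the 89 called up in EpSCs and down in Bulge, 57 had the Bulge sign in Germ, and of the 38 called down in EpSCs and up in Bulge, 28 did. Among the 7666 genes called in neither population, Germ had the sign of the Bulge value in 4497 and of the EpSCs value in 4524. Among the 4729 called in EpSCs and not in Bulge, these counts were 3038 and 3284. The count of 85 is thus a description and does not place Germ with Bulge. Whether Germ differed from either population was not tested here.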

How the results depend on the processing

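The count of 1433 called differences stayed within 1.5 times for a t score with 4, 12 or the inferred degrees of freedom (1926, 1880 and 1936). Of the 1433, these t scores kept 1303, 1433 and 1432, and their other calls were new. The count also stayed within 1.5 times for effects centred on their medians (1418, of which 1398 were among the 1433) and for protein-coding IDs only (1391). It fell to 411 (240 above 0 and 171 below) under the Benjamini-Yekutieli adjustment and to 536 (295 and 241) at an adjusted p under 0.01. For a difference tested beyond 1 on the log2 scale it fell to 178 (130 and 48), of which 73.0% were above 0, against 52.6% of the 1433. Of the 127 genes called in opposite directions, 79 passed that last test. These 3 settings ask for stronger evidence by construction. Of the settings run, only centring could change the sign of a difference, and no named gene changed sign. Centring moves values very little, as the median log2 fold change was −0.0034 in EpSCs and −0.0213 in Bulge, so the kept signs are no test of the results. Of the 158 named genes' results, the stricter adjustment ended 67 calls, the threshold of 0.01 ended 57 and the test beyond 1 ended 92, while centring ended 1 and 4 degrees of freedom ended 11.

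No paired analysis was possible because the values per library could not be tied to replicate numbers. For the same reason leaving out each replicate, other pseudocounts, a filter on low TPM, array weights, scaling between libraries and the fit of all 18 libraries were not run. The authors' p-values carry the only measure of spread, levels behind large fold changes are unknown, and depth cannot be judged.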

Other observations

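Runs of at least 3 neighbouring tested genes with called differences in the same direction, no more than 500 kb apart, were found at 15 places, and several held members of a gene family. These families were picked after the differences had been seen, so their counts are descriptions. The mu-class glutathione transferases Gstm5, Gstm7, Gstm6, Gstm2 and Gstm1, which conjugate electrophiles to glutathione, form such a run at chr3:107895821-108017973 (GRCm38). In the authors' deposited table Gstm5 rose by 1.97 in EpSCs and fell by 1.05 in Bulge (difference 3.03 ± 0.54, adjusted p = 1.27e-05). Gstm7 rose by 2.46 and fell by 1.79 in the authors' deposited table (difference 4.25 ± 0.82, adjusted p = 5.58e-05). All 5 were called down in Bulge, 4 of them up in EpSCs, and Gstm2 was at 0.08 in EpSCs in the authors' deposited table. Near-identical genes of such a cluster can share reads, so their values may not be independent.

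The promoter window of Gstm5 at chr3:107895604-107895903 (plus strand, RefSeq, GRCm38.p6) is shown because it heads that run. It holds a match to the antioxidant response element, the sequence bound by NRF2, written as TGACNNNGC and searched on both strands. It is present in 2 of the 5 genes of the run, Gstm5 and Gstm7, and not in the windows of the others. The match, in capitals, begins 42 bases before the start.
Gstm5: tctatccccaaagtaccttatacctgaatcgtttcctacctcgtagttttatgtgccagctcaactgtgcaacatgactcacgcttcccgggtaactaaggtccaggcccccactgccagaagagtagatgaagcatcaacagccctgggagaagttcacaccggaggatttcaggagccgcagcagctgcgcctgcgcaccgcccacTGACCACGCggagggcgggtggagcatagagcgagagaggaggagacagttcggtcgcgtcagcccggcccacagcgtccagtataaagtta
Such a match was present in 10 of 23 listed NRF2 genes (43.5%) and in 1779 of 10782 tested genes (16.5%). It was present in 18.1% of the genes with a higher effect in EpSCs and in the same share of those with a lower effect.

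Other runs with the higher effect in EpSCs were Akr1c18, Akr1c13 and Akr1c19, steroid and aldehyde reductase genes at chr13:4132615-4252843, and Skint9, Skint2 and Skint10, epidermal immunoglobulin-family genes at chr4:112385969-112774866. Akr1c18 rose by 4.21 in EpSCs and fell by 3.13 in Bulge in the authors' deposited table (difference 7.34 ± 1.20, adjusted p = 9.29e-07). A run with the lower effect in EpSCs was that of the skin proteases Klk10, Klk9 and Klk8 at chr7:43781035-43803826. Klk8 was at −0.16 in EpSCs and rose by 3.98 in Bulge in the authors' deposited table (difference −4.14 ± 1.20, adjusted p = 0.0123). None of these 3 was called at an adjusted p under 0.01. Not every measured member of these families had a called difference. It was called in 3 of 5 AKR1C, 3 of 11 Skint and 3 of 9 kallikrein genes, and in 5 of 6 mu-class glutathione transferases. The share over all genes was 10.4%.

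Other families, whose called members formed no run of 3 neighbours, are given as counts. Of 7 fibulin genes, which encode elastic fibre proteins, 5 had the higher effect in EpSCs, among them Fbln1 (4.04 ± 0.65, adjusted p = 7.45e-07), and 2 at an adjusted p under 0.01. The metallothionein genes Mt1 and Mt2, a neighbouring pair that encodes zinc-binding proteins, had the lower effect in EpSCs, at −2.43 and −2.32 there and 0.75 and 1.25, not called, in Bulge in the authors' deposited table. Of 15 Kruppel-like factor genes 6 differences were called below 0 and 1 above, that of Klf15 (2.06 ± 0.65), with 3 of the 7 called at an adjusted p under 0.01. Of 24 PPAR target and fatty acid oxidation genes 8 were called above 0, among them Acot1, an acyl-CoA thioesterase gene (3.11 ± 0.52, adjusted p = 2.29e-06), and 1 below, that of Ucp2. Of 15 NF-kB subunit and feedback genes 4 were called below 0, including Nfkbiz and Tnfaip3, and 1 above, Traf1, with 3 of the 5 called at an adjusted p under 0.01. Of 21 myeloid genes 10 were called below 0 and 0 above, and 5 at an adjusted p under 0.01, with a median log2 fold change of −1.71 in EpSCs and 2.03 in Bulge in the authors' deposited table. None of the 21 was called up in Bulge. This list, made after the differences had been seen, left out Ear2 and Cd68, whose differences were called above 0 (11.29 and 2.58). Its counts therefore describe the chosen members only.

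Among 494 lincRNA IDs, 43 had a called difference (8.70%), 27 above 0 and 16 below. Over all genes the share was 10.4%, with 5.46% above 0 and 4.91% below, so lincRNAs did not stand out. Morrbid, a noncoding RNA known for its role in the lifespan of myeloid cells, was at −2.78 in EpSCs and 3.24, not called, in Bulge in the authors' deposited table (difference −6.02 ± 1.43, adjusted p = 0.00147). Wincr1, a Wnt-regulated noncoding RNA, was at −1.36, not called, in EpSCs and 4.38 in Bulge in the authors' deposited table (difference −5.73 ± 1.86, adjusted p = 0.0297).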
